A study of Homo sapiens and Pan troglodytes with 11 samples.

Results

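Neurons of 1 human and 1 chimpanzee line were compared over a 21-gene probe panel, GAPDH and 20 other genes, in 4 libraries of screen replicate 2. The human libraries, XC163 and XC164, came from WTC11, an induced pluripotent stem cell line, and the chimpanzee libraries, XC165 and XC166, from the line C3649. All groups shared the same state: 2-week-old excitatory neurons, taken from a CRISPR interference screen of human accelerated regions, in which guide RNAs lead a repressor to chosen sites. A cell was kept when GAPDH made up at most 80% of its gene UMIs (unique molecular identifiers, each standing for 1 captured probe molecule) and when the other 20 genes gave at least 50 UMIs. That left 15494 of 18699 deposited cells, out of 41950 cells in the 11 libraries of the series. Levels are given as UMIs per 1000 UMIs of the 20 genes, so that GAPDH is outside the total and a larger share of 1 gene lowers the shares of the rest.

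Human accelerated regions are stretches of DNA that vertebrates kept nearly unchanged but that collected many substitutions after the human and chimpanzee lineages parted. Many lie near genes of brain development and act as enhancers, so the genes around them are natural candidates for species differences in neurons. The panel joins transcription factors of neural development, signalling regulators, membrane proteins of neurons and housekeeping enzymes. It holds none of the defining markers of excitatory neurons, such as SLC17A6, SLC17A7, NEUROD6, TBR1, MAP2 and TUBB3, nor of inhibitory neurons, progenitors, astrocytes or stem cells. The labelled cell type could therefore not be checked with it.

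Many of the genes are neighbours on GRCh38, and all named here are protein-coding in GENCODE 29. Chromosome 14 carries 5 of them within 32.1 to 35.3 Mb, namely NPAS3 with AKAP6 and ARHGAP5 on one side and BAZ1A and PSMA6 on the other. Chromosome 12 carries 3 between 92.1 and 94.3 Mb (BTG1, SOCS2, PLXNC1), chromosome 20 another 3 below 0.7 Mb (NRSN2, SCRT2, SRXN1), and chromosome 3 DAZL with PLCL2 and TBC1D5 from 16.6 to 18.4 Mb. TENM3 is next to DCTD at 182.1 to 182.9 Mb of chromosome 4. BHLHE40 lies at chr3:4979116-4985323, ONECUT2 at chr18:57435685-57491297 and GLI2 at chr2:120735623-120992653.

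The libraries were uneven. XC163 kept 1536 of 3825 cells (40.2%, 95% Clopper-Pearson interval 38.6 to 41.7%, counting error only), whereas XC164 kept 4070 of 4621, XC165 5730 of 5825 and XC166 4158 of 4428. In XC163, 1712 cells had GAPDH above 80% of their gene UMIs, against 2 to 9 cells in each of the other libraries. Those 1712 cells had a median of 27 UMIs outside GAPDH. Their summed profile had 164 AKAP6, 31.0 BTG1 and 14.1 BHLHE40 UMIs per 1000, against 184, 26.4 and 15.9 in the kept XC163 cells. ONECUT2 stood at 57.8 against 45.7 and ARHGAP5 at 93.7 against 83.9. For these genes the removed cells differed from the kept ones but lay nearer the human than the chimpanzee values given below. Within 10 UMIs below the minimum of 50 lay 300, 320, 61 and 146 deposited cells of XC163 to XC166, and within 10 UMIs from it upwards 142, 506, 120 and 244. The kept cells held 209589, 436444, 789855 and 499273 UMIs outside GAPDH in XC163 to XC166, with medians of 127, 94, 112 and 102 per cell. XC163, XC164 and XC165 had 880 cell barcodes in common, and XC166 shared 3 to 9 with each of them but 1436 with a library of the other panel. Of the kept cells, 65, 974, 1120 and 10 carried a barcode found in another of the 4 libraries. Leaving them out kept all 17 calls of gene share described next. The kept cells had GAPDH shares of 47.4% and 44.8% in the human libraries and 52.5% and 50.2% in the chimpanzee libraries. These values are set in part by the limit on GAPDH itself, so they were given no test. Over all deposited cells the GAPDH shares were 67.9% and 45.2% in XC163 and XC164 and 52.6% and 50.4% in XC165 and XC166, and the human minus chimpanzee difference turned from -5.29 to 5.06 percentage points.

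Which genes took a larger share in human and which in chimpanzee neurons was asked first. Human neurons had larger shares of BHLHE40, SOCS2, ONECUT2, AKAP6, PLXNC1, SRXN1 and DAZL, by 1.94- to 4.47-fold, and chimpanzee neurons of BTG1, GLI2, NPAS3 and TENM3, by 1.72- to 2.84-fold. By edgeR's quasi-likelihood test with Benjamini-Hochberg adjustment at 0.05, 17 of the 20 genes passed (85.0% of those tested), 11 with a larger (55.0%) and 6 with a smaller share (30.0%) in human neurons. The 4 libraries separated the species without overlap for 19 of the 20 genes. The median log2 ratio of human over chimpanzee was 0.28 over the 20 genes, and the median size of the ratio, without its sign, was 0.87. The libraries of 1 species lay at most 0.29 apart on the log2 scale. The 11 genes named by fold above passed in every alternative that included them, out of 23. Without XC163, the library with so many cells of high GAPDH share, 14 genes passed, all among the 17, with log2 ratios of 2.13 for BHLHE40, 1.45 for ONECUT2, 1.26 for AKAP6 and -1.46 for BTG1. In this and the other fits that leave 3 of the 4 libraries, 1 species has a single library, which is assumed to vary as the libraries of the other species do. The other calls were of 0.48 or less in size and depended on what the genes were scaled to.

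**Figure D1:**
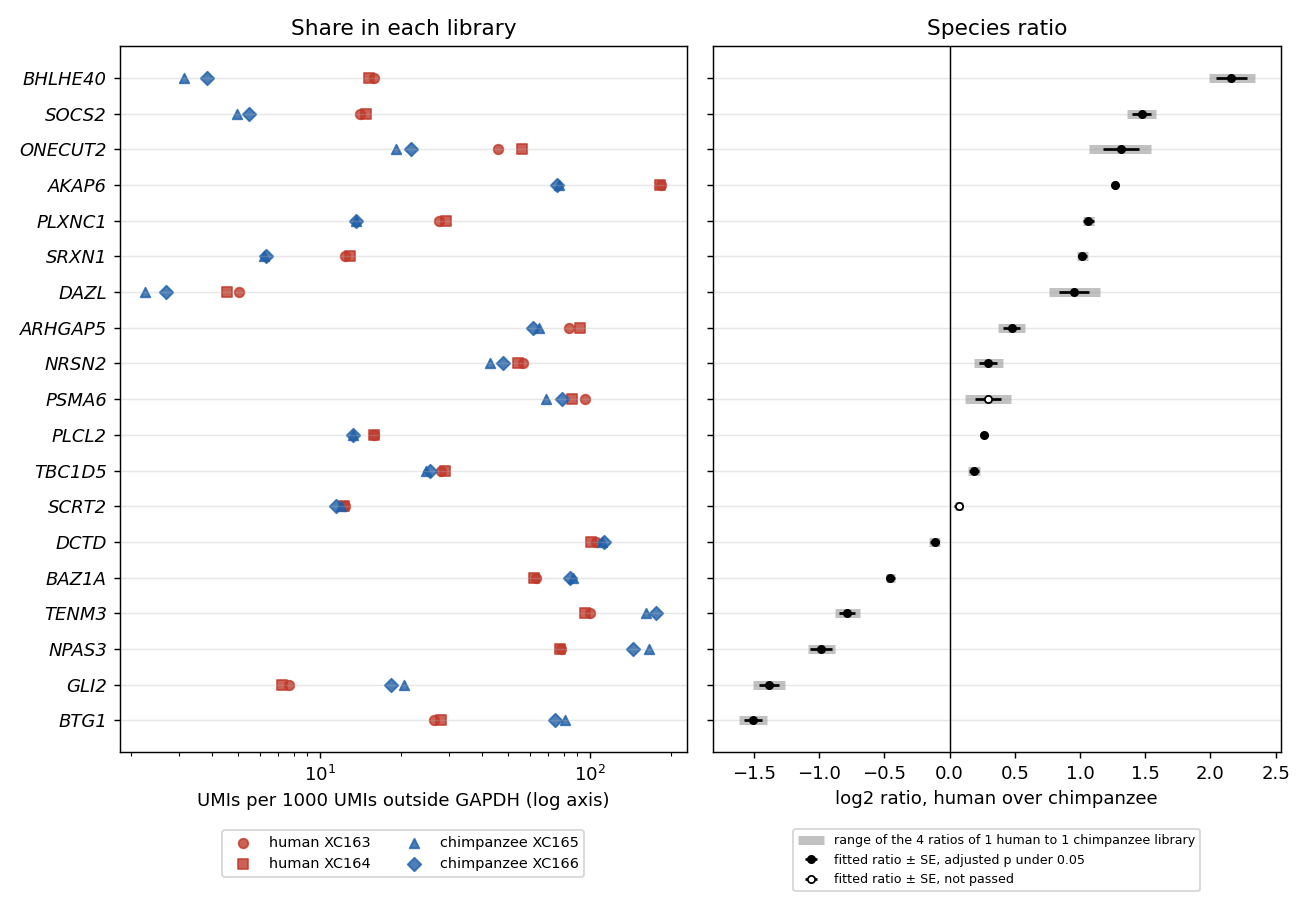
Shares of 19 genes in each library, as UMIs per 1000 UMIs outside GAPDH on a log axis (left), and the fitted log2 ratio of human over chimpanzee with its SE and the range of the 4 ratios of 1 human to 1 chimpanzee library (right). BHLHE40 has the highest ratio (2.16) and BTG1 the lowest (-1.51), and open circles mark PSMA6 and SCRT2, which did not pass.

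Of the 6 transcription regulators, 2 were higher and 3 lower in human neurons and 1 did not pass, with a median log2 ratio of -0.19 against 0.28 over all 20 genes, of which 55.0% were higher and 30.0% lower. BHLHE40, a basic helix-loop-helix repressor tied to the circadian clock and to neuronal activity, stood at 15.9 and 15.2 UMIs per 1000 in XC163 and XC164 and at 3.14 and 3.83 in XC165 and XC166. Both human libraries lay far above both chimpanzee libraries. The means were 15.5 ± 0.496 and 3.48 ± 0.486 (SD, n = 2 and 2), a log2 ratio of 2.16 ± 0.12 (SE; adjusted p = 5.74e-04, edgeR). The 4 ratios of 1 human to 1 chimpanzee library ran from 1.99 to 2.34.

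BHLHE40 proteins bind the E-box CACGTG, which reads the same on both strands, so the promoters of the panel were searched for it. It was found in the 250 bases before an annotated RefSeq start for 3 of the 17 named genes with an entry, BHLHE40 itself, DAZL and TBC1D5, against 7.73% of all 27305 genes in the same table. BAZ1A and SOCS2 had no entry. The 30 bases around each match are shown because the gene with the largest species ratio carries the letters its own family reads, with the E-box in capitals, on GRCh38.p14 and in the direction of the gene.
BHLHE40: tccaaCACGTGagactcatgtgatgaagcc
DAZL: tgcctcgccggcCACGTGcaagggccacgg
TBC1D5: cgcgagcgtggtCACGTGgccgctggtcac
These runs lie at chr3:4979187-4979216 (plus strand), chr3:16604927-16604956 (minus strand) and chr3:17742636-17742665 (minus strand), and the E-box begins 245, 154 and 22 bases before the RefSeq start. GENCODE 29, which has other starts, places the E-boxes of BHLHE40 and TBC1D5 in an exon and that of DAZL in an intron. The 3 genes had log2 ratios of 2.16, 0.95 and 0.19, in a panel of which 55.0% of genes were called higher in human neurons, although TBC1D5 turned to -0.16 with TMM factors and -0.06 with DESeq2. The match describes the letters of the human reference, and chimpanzee sequence was not examined. Binding of BHLHE40 at these sites, and any effect on the 3 genes, was not tested.

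ONECUT2, a homeobox factor of neuronal differentiation, stood at 45.7 and 55.9 per 1000 in the human and at 19.2 and 21.7 in the chimpanzee libraries. On the log2 scale XC163 and XC164 lay further apart for ONECUT2 than the libraries of either species did for any other gene. The log2 ratio was 1.31 ± 0.14 (adjusted p = 0.00254, edgeR).

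GLI2, a zinc finger factor that carries Hedgehog signals to the nucleus, went the other way, with 7.69 and 7.23 per 1000 in the human and 20.5 and 18.4 in the chimpanzee libraries. The groups did not overlap, and the fitted log2 ratio was -1.39 ± 0.08 (adjusted p = 5.74e-04, edgeR). NPAS3, a helix-loop-helix PAS factor of brain development, stood at 78.3 and 77.9 per 1000 in the human libraries. In the chimpanzee libraries it stood at 166 and 144, and its log2 ratio was -0.99 ± 0.08 (adjusted p = 0.00152, edgeR).

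BAZ1A, a subunit of ISWI chromatin remodellers, had 63.2 and 62.0 per 1000 in the human and 87.0 and 84.6 in the chimpanzee libraries, without overlap. Its log2 ratio was -0.45 ± 0.03 (adjusted p = 0.00115, edgeR), but -0.15 with an adjusted p of 0.303 when genes were scaled to GAPDH UMIs. SCRT2, a neuronal zinc finger repressor of the Snail family, had nearly the same share everywhere, 12.39, 12.31, 11.97 and 11.53 per 1000 in XC163 to XC166. Its log2 ratio of 0.07 ± 0.03 did not pass (adjusted p = 0.129, edgeR), and the sign depended on the scaling, with -0.28 (adjusted p = 0.00538) by TMM and 0.38 (adjusted p = 0.0134) against GAPDH.

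Of the 5 signalling and growth regulators, 4 were higher and 1 lower in human neurons, with a median log2 ratio of 0.48, where 85.0% of all 20 genes passed (55.0% higher, 30.0% lower). SOCS2, which dampens growth hormone and cytokine receptors, stood at 14.1 and 14.8 per 1000 in the human and at 4.94 and 5.49 in the chimpanzee libraries. The groups were well apart, at a log2 ratio of 1.47 ± 0.07 (adjusted p = 5.12e-04, edgeR). AKAP6, which anchors protein kinase A at the nuclear envelope, stood at 184 and 182 per 1000 in the human and at 76.7 and 75.6 in the chimpanzee libraries. Libraries of 1 species agreed within 0.02 on the log2 scale, and the log2 ratio was 1.27 ± 0.03 (adjusted p = 1.95e-04, edgeR).

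BTG1, an antiproliferative partner of the deadenylase complex, was the gene lowest in human relative to chimpanzee neurons. It stood at 26.4 and 28.2 per 1000 in the human libraries and at 80.9 and 74.3 in the chimpanzee libraries. The log2 ratio was -1.51 ± 0.07 (adjusted p = 4.78e-04, edgeR), a 2.84-fold larger share in chimpanzee neurons. Its direction was opposite to that of SOCS2 and PLXNC1, its neighbours on chromosome 12.

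ARHGAP5, a GTPase-activating protein, had 83.9 and 92.0 per 1000 in the human and 65.0 and 61.6 in the chimpanzee libraries (log2 ratio 0.48 ± 0.07, adjusted p = 0.00529, edgeR). With TMM factors this fell to 0.13 with an adjusted p of 0.171. PLCL2, a phospholipase C-like protein without catalytic activity, had 15.92 and 15.90 per 1000 in the human and 13.23 and 13.25 in the chimpanzee libraries. It was higher in human neurons at 0.27 ± 0.03 (adjusted p = 0.00254, edgeR), but at -0.08 by TMM and 0.01 by DESeq2 it did not pass.

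Of the 3 membrane proteins of neurons, 2 were higher and 1 lower, with a median of 0.30, beside 55.0% higher and 30.0% lower over all 20 genes. PLXNC1, a plexin receptor for a semaphorin, stood at 27.7 and 29.3 per 1000 in the human and at 13.67 and 13.60 in the chimpanzee libraries. The chimpanzee libraries were nearly equal and the human ones about 2.09-fold higher (log2 ratio 1.07 ± 0.04, adjusted p = 3.90e-04, edgeR). TENM3, a teneurin that matches synaptic partners, stood at 99.96 and 95.7 per 1000 in the human and at 161 and 176 in the chimpanzee libraries. Its log2 ratio was -0.79 ± 0.06 (adjusted p = 0.00143, edgeR). NRSN2, a small neuronal membrane protein, stood at 56.6 and 54.1 against 42.6 and 47.6 per 1000, without overlap. At 0.30 ± 0.07 (adjusted p = 0.0268, edgeR) it passed as higher in human neurons, but it had -0.05 by TMM and 0.05 by DESeq2, and missed the threshold without XC163 (0.0970) or XC164 (0.0572).

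Among the 4 genes of metabolism, the proteasome, redox defence and trafficking, SRXN1 and TBC1D5 passed as higher and DCTD as lower in human neurons, TBC1D5 with the opposite sign by TMM and DCTD against GAPDH, and the median was 0.24, beside 55.0% higher and 30.0% lower over all 20 genes. SRXN1, which repairs oxidised peroxiredoxins, had 12.5 and 12.9 per 1000 in the human and 6.19 and 6.34 in the chimpanzee libraries, a log2 ratio of 1.02 ± 0.04 (adjusted p = 3.90e-04, edgeR). TBC1D5, a Rab GTPase-activating protein of retromer traffic, had 28.2 and 29.04 against 24.7 and 25.5 per 1000. Its log2 ratio of 0.19 ± 0.04 (adjusted p = 0.0140, edgeR) missed the threshold without XC163, XC164 or XC165 (adjusted p 0.0648 to 0.106). DCTD, a deaminase of nucleotide synthesis, had 105 and 101 per 1000 in the human and 111 and 113 in the chimpanzee libraries. Its log2 ratio of -0.11 ± 0.04 lay at the threshold (adjusted p = 0.0496, edgeR), changed sign to 0.19 against GAPDH UMIs, and missed the threshold when any 1 library was left out (0.121 to 0.309). PSMA6, an alpha subunit of the proteasome core, had 95.7 and 85.9 per 1000 in the human and 69.1 and 79.0 in the chimpanzee libraries. It did not pass at a log2 ratio of 0.29 ± 0.10 (adjusted p = 0.0584, edgeR), although its libraries did not overlap, and stood at -0.05 by TMM.

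DAZL, an RNA-binding protein of germ cells, had the fewest UMIs of the genes named, 5.03 and 4.55 per 1000 in the human and 2.26 and 2.69 in the chimpanzee libraries. It had a log2 ratio of 0.95 ± 0.12 (adjusted p = 0.00390, edgeR). The panel marks no population that could be set aside as lacking DAZL, so the level that free probe molecules give was not measured.

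Neighbours on a chromosome shared a direction in some places and not in others. On chromosome 14, AKAP6 and ARHGAP5 were higher and NPAS3 and BAZ1A lower in human neurons, with PSMA6 not past the threshold. On chromosome 12, SOCS2 and PLXNC1 were higher and BTG1 lower. TENM3 and DCTD on chromosome 4 were both lower, with the reversal of DCTD against GAPDH given above. On chromosome 20, SRXN1 and NRSN2 were higher, NRSN2 not by TMM, and SCRT2 did not pass. On chromosome 3 all 3 of DAZL, PLCL2 and TBC1D5 passed as higher, although PLCL2 and TBC1D5 had the opposite sign by TMM.

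The counts of higher and lower genes turned on the scaling. TMM factors moved the median gene by -0.35 on the log2 scale and called 15 genes, 7 higher and 8 lower in human, so that 46.7% of calls were higher against 64.7% without such factors. DESeq2 moved it by -0.25 and called 16, 8 higher and 8 lower (50%). Scaling to GAPDH UMIs moved it by 0.31 and called 18, 14 higher and 4 lower (77.8%), and scaling to all 21 genes moved it by 0.15 and called 18, 13 higher and 5 lower (72.2%). Leaving AKAP6 out of the total, a choice made after seeing the data, called 18 of 19, 13 higher and 5 lower. The p-values measure the spread between libraries, which the labels do not say were separate cultures, and each species was 1 line. Probe match to chimpanzee transcripts was not examined, and it cannot be told apart from the species.

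How many cells held each gene was compared at equal depth, by thinning every kept cell to 50 UMIs of the 20 genes. Genes of low share, such as BHLHE40 and SOCS2, were found in a far larger part of human than of chimpanzee cells, and GLI2 and BTG1 in a larger part of chimpanzee cells. By limma on the logit of the share of cells, 13 of 20 genes passed (65.0%), 8 of them found in more (40.0%) and 5 in fewer (25.0%) human cells. As for DAZL above, the share of cells that free probe molecules give was not measured for any gene.

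BHLHE40 was found in 51.3% and 50.2% of human and in 12.8% and 16.0% of chimpanzee cells (adjusted p = 0.00215, limma). Without thinning the shares were 77.8%, 71.3%, 30.5% and 32.6%, in the same order. SOCS2 was found in 49.6% and 51.3% of human and 20.98% and 22.2% of chimpanzee cells, or 77.3%, 73.2%, 42.5% and 41.3% unthinned. Both genes thus separated the species at either depth.

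AKAP6 was found in 99.87% and 99.93% of human cells and in 91.6% and 89.4% of chimpanzee cells (adjusted p = 0.00146, limma). If all cells of a library had the library's share, 97.96% and 97.74% of chimpanzee cells would hold at least 1 of it, so more chimpanzee cells lacked AKAP6 at this depth than an even share gives. In human cells an even share gives AKAP6 in above 99.99%, so such a gap could hardly show. Every gene named fell below this expectation in all 4 libraries. BAZ1A had a gap of like size in human cells, with 89.8% and 90.2% counted where an even share gives 96.9% and 95.9%. ONECUT2 had the widest gap in all 4 libraries. It was found in 67.7% and 81.2% of human cells, where an even share gives 88.6% and 94.7%, and in 48.1% and 48.0% of chimpanzee cells, where it gives 59.8% and 61.7%. For BHLHE40, by comparison, an even share gives 54.8% and 53.6% in human and 13.5% and 16.8% in chimpanzee cells, close to what was counted. Unthinned, AKAP6 was found in all human and at least 97.04% of chimpanzee cells, and ONECUT2 in 68.2 to 92.1% of the cells of a library.

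PLXNC1 (69.4% and 74.8% against 48.7% and 47.6%), SRXN1 (47.1% and 45.8% against 24.9% and 25.3%), DAZL (21.4% and 20.7% against 10.6% and 12.7%) and PSMA6 also passed as found in more human cells. DAZL missed the threshold without thinning (adjusted p = 0.0607, limma) and without XC163 (0.0752), XC164 (0.0772) or XC165 (0.0929). PSMA6, above 96.5% everywhere, missed it without any of the same 3 libraries (0.111 to 0.210) and without the barcodes found in more than 1 of the 4 libraries (0.104).

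Of the genes found in fewer human cells, GLI2 had 32.0% and 30.0% against 61.2% and 54.1%, or 59.2%, 48.6%, 84.1% and 76.8% unthinned. BTG1 had 69.3% and 74.2% against 96.7% and 94.4%, or 91.1%, 89.8%, 99.6% and 98.8% unthinned. BAZ1A, NPAS3 and TENM3 were found in 89.8 to 98.4% of human and 96.7 to 99.8% of chimpanzee cells. Without XC163 or without XC164 none of these 5 genes passed (adjusted p from 0.0671 to 0.150, limma), while their differences kept their sign.

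**Figure D2:**
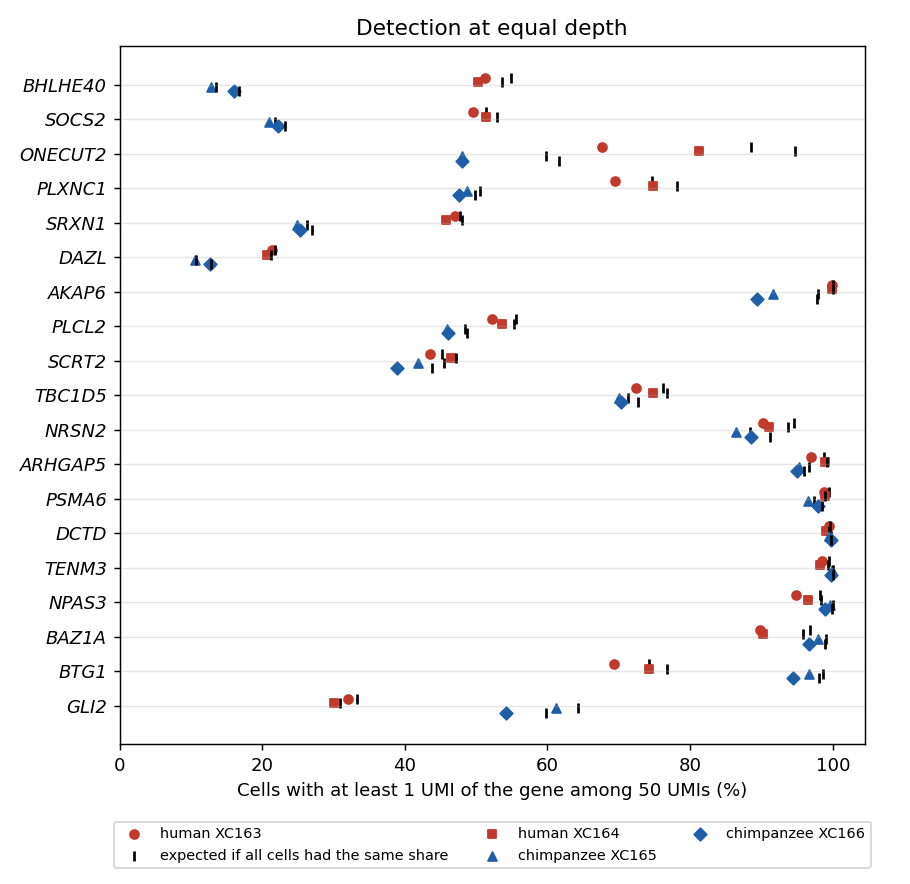
Share of kept cells with at least 1 UMI of a gene after thinning each cell to 50 UMIs, for 19 genes and 4 libraries, with ticks at the share expected if all cells of a library had the same share. BHLHE40 lies at 51.3% and 50.2% in human against 12.8% and 16.0% in chimpanzee libraries. All genes shown lie left of their ticks, ONECUT2 by the most in all 4 libraries.

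How the shares were spread over cells was compared through the coefficient of variation (CV), the SD over the mean across cells with counting noise taken out. Relative to their means, AKAP6 and SCRT2 varied less between human than between chimpanzee cells. The CV of AKAP6 was 0.327 and 0.249 in the human and 0.641 and 0.770 in the chimpanzee libraries, a log2 ratio of -1.30 (adjusted p = 1.003e-04, limma). SCRT2, whose mean share hardly differed, had CVs of 0.388 and 0.301 against 0.921 and 1.06, a log2 ratio of -1.53 (adjusted p = 1.09e-05, limma). The human and chimpanzee libraries did not overlap for either gene.

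In all, 6 of 20 genes passed (30.0%), 1 higher (5.00%) and 5 lower (25.0%) in human neurons. The others were SOCS2 (-0.96), ONECUT2 (-0.69) and BHLHE40 (-0.68), lower, and BAZ1A (0.80), higher, with CVs of 0.607 and 0.525 against 0.311 and 0.337. AKAP6, SOCS2, ONECUT2 and BHLHE40 had larger mean shares in human neurons and BAZ1A a smaller one. Their CVs thus went opposite to their means, and whether spread differed apart from the mean was not tested. Without the 1% of cells with the largest share of a gene, AKAP6 and SCRT2 passed and SOCS2, ONECUT2 and BAZ1A did not, while BHLHE40 gave no estimate there. Limma took the spread as common to all genes here, with an SE of 0.26 for each, so these p-values do not reflect how far the libraries of 1 species differ for a given gene. BHLHE40 rested on XC165, whose CV was 1.33 against 0.690 in XC166, and without XC165 its log2 ratio was -0.21 with an adjusted p of 0.900. BHLHE40 also missed the threshold without XC163 (0.170) or XC164 (0.0814). SOCS2 missed it without XC165 (0.0904), ONECUT2 without XC164, XC165 or XC166 (0.151 to 0.241), and BAZ1A without XC163, XC165 or XC166 (0.0644 to 0.151). AKAP6 and SCRT2 passed in each of these fits, which rest on the same assumption of a common spread.

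Across single cells the species overlapped for every gene named. Of all pairs of 1 human and 1 chimpanzee cell, the human cell had the larger AKAP6 share in 86.8 to 88.1%, with ties split evenly, over the 4 pairings of libraries. For BTG1 the chimpanzee cell was higher in 80.3 to 85.3% of pairs, for NPAS3 in 76.7 to 84.2% and for TENM3 in 75.9 to 80.7%. For BHLHE40 the same measure gave 68.1 to 70.2% for the human cell. Most chimpanzee cells and many human cells gave no UMI of it at this depth, so many pairs were ties. The human cell was strictly higher in fewer pairs than these values. Cells from XC163 against XC164 gave 50.4% for AKAP6, and cells from XC165 against XC166 gave 52.8%.

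The middle cell of AKAP6 had 177 and 176 per 1000 in the human and 62.5 and 53.4 in the chimpanzee libraries. The 90th percentile of chimpanzee cells, 149 and 165, lay near the human median. The 10th percentile of human cells, 101.9 and 107.7, lay well above the chimpanzee median.

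**Figure D3:**
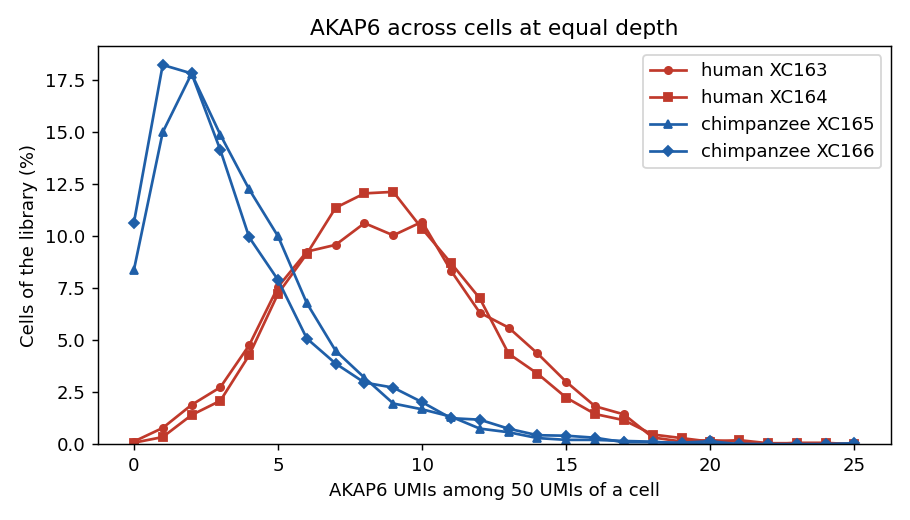
AKAP6 UMIs among 50 UMIs of a cell, as the share of the kept cells of each of the 4 libraries. The human curves rise to a broad top and the chimpanzee curves peak low with a long right tail, with 0 AKAP6 UMIs in 0.130% and 0.0737% of human and 8.36% and 10.6% of chimpanzee cells.

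Because AKAP6 varied so widely, cells of like counted AKAP6 share were compared, a choice made after seeing the data. AKAP6-low cells had 30 to under 100 AKAP6 UMIs per 1000 and AKAP6-high cells 150 or more, which are ranges of 1 score and not cell types. High cells made up 66.3% and 68.4% of the human and 9.91% and 12.5% of the chimpanzee kept cells, and low cells 8.66% and 7.40% against 56.9% and 51.5%. Within 15 per 1000 of a limit lay 140 and 284 cells of XC163, 352 and 849 of XC164, 851 and 311 of XC165 and 409 and 219 of XC166, for the low and the high range. The share of a cell carries counting error, which places some cells in a range. How many, and what this does to the species ratios, was not tested. In the human libraries the low cells, 133 and 301, were fewer than the cells near the low limit. AKAP6 itself averaged 214 and 210 per 1000 in the human and 195 and 201 in the chimpanzee high cells, and 76.8 and 79.98 against 61.0 and 57.2 in the low cells. The other 19 genes were scaled to UMIs outside GAPDH and AKAP6.

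Of the 16 genes called in all kept cells, AKAP6 aside, 10 were called in the same direction in both ranges of AKAP6, 3 in 1 range and 3 in neither. The calls in all kept cells had AKAP6 in the total and those within the ranges did not, so the tally mixes both changes. DCTD, called in neither range, was not called over all kept cells either once AKAP6 was left out of the total (0.06, adjusted p = 0.197, edgeR). In low cells 13 of 19 genes passed (68.4%), 9 higher (47.4%) and 4 lower (21.1%) in human, and in high cells 13 (68.4%), 8 higher (42.1%) and 5 lower (26.3%). BHLHE40 had log2 ratios of 2.36 ± 0.16 in low and 1.97 ± 0.12 in high cells, BTG1 -1.17 ± 0.13 and -1.26 ± 0.10, and PLXNC1 0.92 ± 0.14 and 0.99 ± 0.10. NPAS3 had -0.61 ± 0.13 and -0.71 ± 0.10. These 4 genes had adjusted p of 1.30e-04 or below by edgeR. The spread in high cells was taken as common to all genes, so the p-values there do not show a gene's own spread. In low cells it was largely shared too, with a weight of 25.45 degrees of freedom against 2 of a gene's own. BAZ1A, called lower in human neurons over all kept cells, had 0.13 in low (adjusted p = 0.354) and -0.13 in high cells (adjusted p = 0.204). Over all kept cells with AKAP6 left out of the total, BAZ1A had -0.28 (adjusted p = 0.00404, edgeR).

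ONECUT2, GLI2 and SCRT2 differed in species ratio between the ranges, 3 of 19 genes (15.8%), 1 higher (5.26%) and 2 lower (10.5%) in high cells. ONECUT2 stood at 20.8 and 35.4 per 1000 in human low cells and at 14.2 and 13.6 in chimpanzee low cells, and at 66.9 and 77.6 against 66.3 and 79.1 in high cells. The groups were apart in low cells and overlapped in high cells. The log2 ratio was 1.04 in low and -0.01 in high cells, a difference of -1.005 ± 0.22 (adjusted p = 0.0479, edgeR).

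GLI2 stood at 10.9 and 10.5 in human low cells against 23.8 and 21.7 in chimpanzee low cells, and at 8.70 and 8.31 against 12.1 and 10.3 in high cells. Its log2 ratio was -1.09 in low and -0.40 in high cells, a difference of 0.69 ± 0.09 (adjusted p = 0.0114, edgeR). SCRT2 stood at 12.01 and 11.4 against 11.7 and 10.7 in low cells and at 16.5 and 16.1 against 23.8 and 22.6 in high cells. Its log2 ratio was 0.06 in low and -0.51 in high cells, a difference of -0.58 ± 0.08 (adjusted p = 0.0114, edgeR). Without XC165 none of the 3 passed (adjusted p 0.102 to 0.209), nor without XC166 (0.131 to 0.374), with the signs kept. Without XC163, 7 genes passed, and without the barcodes found in more than 1 of the 4 libraries 6 did.

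Within the chimpanzee libraries, high cells had more ONECUT2 than low cells by 2.38 on the log2 scale, more SCRT2 by 1.05 and more PLCL2 by 0.88, and less GLI2 by 1.02. By edgeR with the library as a block, 15 of 19 genes differed there (78.9%), 9 higher (47.4%) and 6 lower (31.6%) in high cells. Within the human libraries 6 of 19 did (31.6%), 3 higher (15.8%) and 3 lower (15.8%), with ONECUT2 at 1.39, PLXNC1 at 0.54 and SCRT2 at 0.47. All 6 had the same adjusted p of 0.0483 (edgeR), just under the threshold, from a fit with 1 residual degree of freedom. In chimpanzee the spread was again common to all genes, and the human low cells were few, 133 in XC163 and 301 in XC164, so the counts of the species are not comparable. Median UMIs outside GAPDH were 91 and 79 in human low, 134 and 99 in human high, 112 and 104 in chimpanzee low and 122 and 107.5 in chimpanzee high cells.

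**Figure D4:**
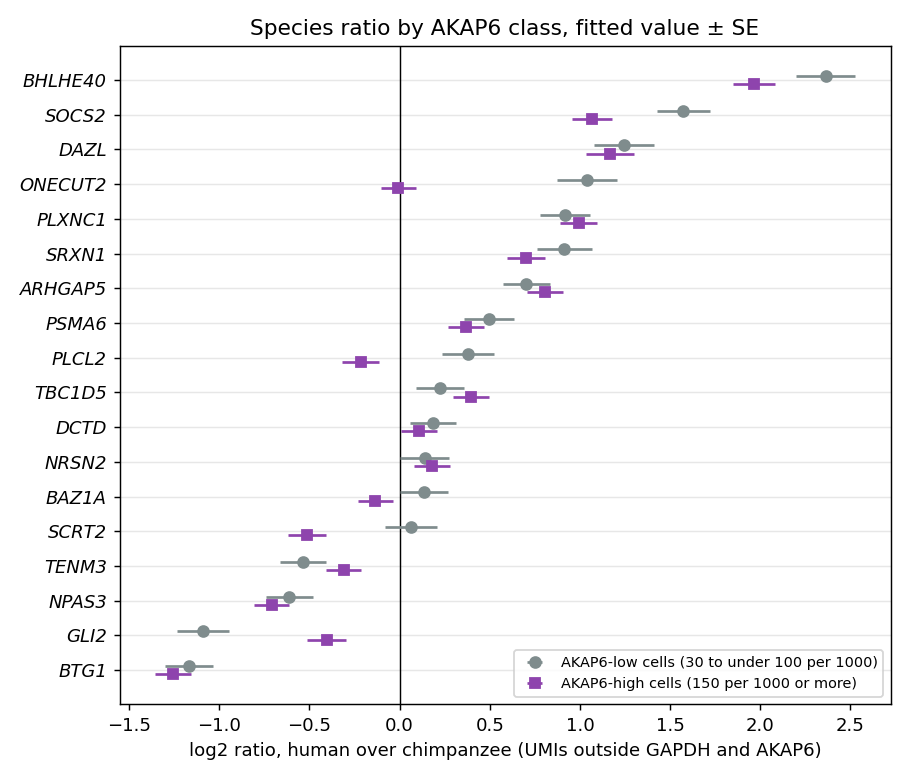
Log2 ratio of human over chimpanzee, with its SE, for 18 genes in cells of low AKAP6 (circles, 30 to under 100 per 1000) and of high AKAP6 (squares, 150 or more), relative to UMIs outside GAPDH and AKAP6. ONECUT2 lies at 1.04 in low and -0.01 in high cells, while BTG1 lies at -1.17 and -1.26.

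A further 7 libraries of the series used a 10-gene panel, and 7 genes were on both panels. Shares of these 7 genes in their own total let the species ratios be set side by side, over 6 human and 5 chimpanzee libraries. The cells were filtered unlike. The minimum of 50 UMIs was taken over 20 genes with the 21-gene panel and over 10 genes with the 10-gene panel. The GAPDH limit applied to the 21-gene panel only. AKAP6 had 260 ± 1.73 against 104 ± 0.929 per 1000 with the 21-gene panel (SD, n = 2 and 2) and 326 ± 16.8 against 206 ± 25.7 with the 10-gene panel (n = 4 and 3). Human libraries were above chimpanzee libraries with both panels. The log2 ratio was 1.33 ± 0.11 with the 21-gene and 0.66 ± 0.09 with the 10-gene panel, and the difference of 0.67 ± 0.14 passed (adjusted p = 0.00162, edgeR). Over the libraries of screen replicate 2 it was 0.60, where the 10-gene panel had only XC167 for human and XC168 for chimpanzee. The other libraries of the 10-gene panel were of screen replicate 1, so in the main fit panel goes in part with replicate.

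BAZ1A, lower in human with both panels, had 88.9 ± 0.0136 against 117 ± 2.21 with the 21-gene and 49.5 ± 6.54 against 90.6 ± 8.52 with the 10-gene panel. Its log2 ratios of -0.39 and -0.87 differed by 0.48 ± 0.16 (adjusted p = 0.0310, edgeR). Over the libraries of screen replicate 2, with only XC167 and XC168 for the 10-gene panel, the difference was 0.26. Without any 1 of 8 of the 11 libraries it missed the threshold (adjusted p up to 0.102). So 2 of 7 genes differed by panel (28.6%), both with a higher ratio in the 21-gene panel.

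For the other 5 genes no difference by panel passed. NPAS3 had -0.93 and -0.59 with the 21-gene and the 10-gene panel (difference -0.33 ± 0.15, adjusted p = 0.0947, edgeR), and passed at 0.0489 without the chimpanzee library XC124. TENM3 had -0.72 and -0.67, ARHGAP5 0.54 and 0.69, PSMA6 0.36 and 0.43, and DCTD -0.05 and -0.08. XC166 shared 1436 barcodes with the chimpanzee library XC168 of the 10-gene panel. Without barcodes found in more than 1 of the 11 libraries, an alternative chosen after seeing the data, the difference by panel was 0.67 for AKAP6 (adjusted p = 0.00212, edgeR) and 0.47 for BAZ1A (adjusted p = 0.0349). The labels do not say which libraries came from the same culture, so panel and culture cannot be told apart.

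**Figure D5:**
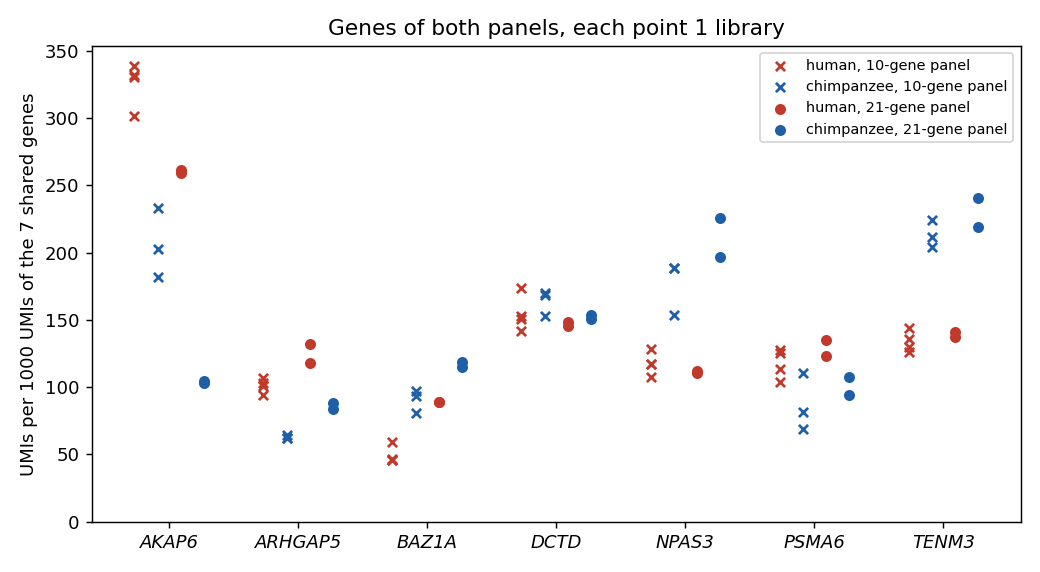
Share of each of the 7 genes on both panels in the total of these 7, per 1000, with 1 point per library (crosses, 10-gene panel; circles, 21-gene panel). Human libraries lie above chimpanzee libraries for AKAP6 and below them for NPAS3 and TENM3 with both panels, and the AKAP6 gap is wider with the 21-gene panel.

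How far single cells could be told apart by species was described with a score, chosen after seeing the data. A cell's log-likelihood under the summed shares of 1 human and 1 chimpanzee library was computed for cells of the libraries not used. On average 86.0% of XC163, 92.2% of XC164, 92.1% of XC165 and 87.3% of XC166 cells fell on the side of their own species. Without AKAP6 the shares were 82.2%, 89.6%, 93.7% and 87.2%, so the remaining 19 genes placed most cells as well. With AKAP6 but without barcodes found in more than 1 of the 4 libraries, they were 86.0%, 90.5%, 90.6% and 87.2%.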

How the data were processed

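The authors deposited UMI counts, per the file headers, with cells as rows and gene probes or guide barcodes as columns. Bowtie, SAMtools, UMI-tools, fastp and hg38 are named in the submitters' processing notes. What each did, its version and the rule for calling cells are not given in the sources used. Groups came from the labels' cell lines. The 28 guide barcode columns were not used, so cells of all guides were pooled.

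Counts of the 20 genes were summed per library and fitted with edgeR 4.0.16 (quasi-likelihood, common dispersion, no TMM factor, R 4.3.3). Detection and spread across cells were fitted with limma 3.58.1, and p-values were adjusted by Benjamini-Hochberg over all genes of a fit at 0.05. The SE of gene share ran from 0.03 to 0.14. The edgeR fit was run on counts simulated with 1 dispersion for all genes. It called 4% of 800 unchanged genes, which is a share of unchanged genes and not of calls. It called 100% of genes with a log2 change of 1 or -1. Of genes changed by 0.25 and -0.25 it called 54% and 56%. Detection used seeded thinning to 50 UMIs, with 0.5 added to both counts. No doublet caller was run, and leaving out the 5% of cells with most UMIs was tried instead. Libraries of 1 species differed by more than counting noise (chi-square over its degrees of freedom 36.0 for human and 129 for chimpanzee), so none was treated as a repeat deposit, which does not show that they are independent cultures. Alternatives covered scaling, cell filters, depth, barcodes, DESeq2 1.42.0 and leaving out each library.

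The members and gene lists were chosen with earlier results of these data known. Every gene outside GAPDH is named, and those past a threshold are described in full, except 1 gene that is counted in the totals and not reported here. The comparisons within AKAP6 ranges, the species score, the fit without AKAP6 and most barcode exclusions were chosen after seeing the data. Intervals cover counting error only.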

Additional observations from a re-analysis of the deposited data

Results flagged for a closer look

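AKAP6 and BAZ1A were singled out because their species ratio differed between panels by edgeR's test of the difference. The log2 ratio of AKAP6 was higher with the 21-gene panel by 0.67, at 1.33 against 0.66. That of BAZ1A was higher by 0.48, at -0.39 against -0.87, and rested on most of the libraries being present.

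GLI2, ONECUT2 and SCRT2 were singled out because their species ratio differed between AKAP6-high and AKAP6-low cells. The difference, high minus low, was 0.69 for GLI2, -1.005 for ONECUT2 and -0.58 for SCRT2. None of the 3 passed without XC165 or without XC166, and the comparison was chosen after seeing the data.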

How the results depend on the processing

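No paired analysis was possible because all 4 libraries carry the same screen replicate number. Gene share called 17 genes, 14 to 17 when 1 library was left out. TMM called 7 genes higher in human against 11. DCTD changed sign from -0.11 to 0.19 scaled to GAPDH, 0.035 scaled to all 21 genes and 0.064 without AKAP6. By TMM, NRSN2 changed to -0.052, PLCL2 to -0.082, PSMA6 to -0.053, SCRT2 to -0.28 and TBC1D5 to -0.16. By DESeq2, SCRT2 changed to -0.18 and TBC1D5 to -0.063, and without TENM3, the gene with the largest mean UMI share, SCRT2 changed to -0.046. These follow from which genes the scaling rests on. Over all deposited cells the human minus chimpanzee difference was 5.06 percentage points for the GAPDH share, against -5.29 in kept cells, and -41.5 for the median UMIs per cell, against 3.5. XC163 holds nearly all cells that the GAPDH limit removes.

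Detection called 13 genes, and 6 to 14 with 1 library left out, with 0 to 6 lower in human. Spread called 6 genes, and 2 without the top 1% of cells (0 higher and 2 lower in human). With 1 library left out it called 2 to 5, with 0 to 2 higher and 2 to 4 lower. The panel comparison called 2 genes, and 1 to 3 with 1 library left out, with 1 to 2 higher and 0 to 1 lower in the 21-gene panel. With 1 library left out, the panel difference ran from -0.010 (without XC151) to 0.088 for DCTD, from -0.29 to 0.068 (without XC124) for PSMA6, positive also without XC166, and from -0.12 to 0.014 (without XC166) for TENM3, none past the threshold. The AKAP6 comparison called 3 genes, 6 without shared barcodes (2 higher and 4 lower in high cells), and 0 to 7 with 1 library left out (0 to 1 higher and 0 to 6 lower). Beyond the fewer samples and cells in these fits, the cause was not tested. The cells of 1 library are not replicates, so n = 2 per species limits every test, and DAZL and BHLHE40 rest on few UMIs per cell.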
